A study of Mus musculus with 20 samples.

Results

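Intestinal material of 7 Apc Min mouse libraries given a control treatment was compared with that of 7 wild-type (WT) libraries listed as untreated, 14 of the 20 RNA sequencing libraries of the series. The libraries were taken by their titles, and all genes of the deposited table were used. The control treatment is not described further, WT libraries were not given it, and so genotype and treatment cannot be told apart. The other 6 libraries, from Apc Min mice given DM-aKG (dimethyl alpha-ketoglutarate), entered the fit to estimate the spread between libraries. They also counted in the filter on low values and in the alternative scalings. The labels give no strain, age, sex or intestinal segment. Nor do they tie each library to an animal of its own, and a p-value here therefore reflects only library-to-library spread, which may be technical. Titles name tissue, whereas other label fields name organoids in a low-glutamine medium. Non-epithelial transcripts were present in all 14 libraries: the smooth muscle myosin Myh11 lay at 36.8 RPKM or more, the plasma cell joining chain Jchain at 34.4 RPKM or more and the leukocyte gene Ptprc at 1.01 RPKM or more. RPKM is the number of reads per kilobase of gene, scaled to the mapped reads of the library. Epithelial markers were high throughout, with Epcam between 696 and 1090.4 RPKM and Vil1 between 214 and 1071 RPKM. Of 10 colon genes, 8 did not reach 1 RPKM in enough libraries to be tested, and those 8 stayed at or below 0.780 RPKM.

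The Min allele truncates Apc, a scaffold of the complex that marks beta-catenin for destruction. When the remaining copy is lost in an epithelial cell, beta-catenin accumulates, enters the nucleus with TCF and LEF factors and switches on genes that normally mark the crypt base, many of which encode inhibitors of the pathway. Cells that keep this state form adenomas, which in Apc Min mice arise mainly in the small intestine, and which contain stroma, vessels and immune cells of their own. Bulk RNA reads all of these together, and in such libraries fewer cells of a type and less RNA per cell cannot be told apart.

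Depth, estimated from the step between low values, was 21.24 to 29.28 M reads (M, mega), and it did not differ between groups beyond their spread (exact permutation p = 0.668). More genes reached 1 RPKM in Apc Min control libraries (12031 ± 212, SD, n = 7) than in WT libraries (11420.1 ± 247, n = 7), with exact permutation p = 0.000583, the smallest that 7 against 7 allows. The first principal component of the 14 libraries held 62.5% of the variance and placed all 7 Apc Min control libraries apart from all 7 WT libraries. The second, with 13.95%, placed replicates 5 to 7 above most of replicates 1 to 4 in each group. The ribosomal precursor Rn45s also differed between the replicate sets, at 3836 to 6558 RPKM in replicates 1 to 4 and 1078 to 3621 RPKM in replicates 5 to 7. No gene passed a test of whether its difference between genotypes depended on the replicate set (limma adjusted p, 439 of 12431 genes at an unadjusted p under 0.05).

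**Figure D1:**
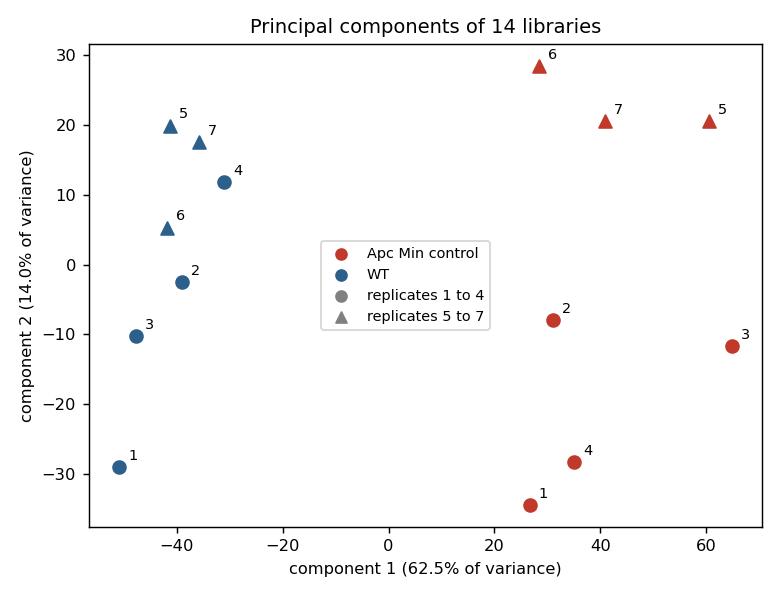
Principal components of log2(RPKM + 1) over the genes tested, with component 1 (62.5% of the variance) on the x axis and component 2 (13.95%) on the y axis. Each point is 1 library, colour gives the group and shape the replicate set. All Apc Min control libraries lie to the right of all WT libraries, and replicates 5 to 7 lie high on component 2.

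Of 12431 genes tested, 5368 (43.2%) were higher and 1948 (15.7%) lower in Apc Min control than in WT at a limma adjusted p under 0.05, 58.9% in either direction. With a difference of at least 1 on the log2(RPKM + 1) scale, 905 were higher and 458 lower. The excess of higher calls depended on the scaling: the median difference of all genes was 0.20, and after median-of-ratios scaling, which centres the typical gene, it was -0.0025 with 3302 genes higher (26.6%) and 3396 lower (27.3%). Higher genes made up 73.4% of the calls as deposited and 49.3% after that scaling. All 3302 genes higher after the scaling were also higher as deposited, and all 1948 genes lower as deposited were also lower after it. List counts are therefore given under the scaling as deposited, and after median-of-ratios scaling where they differ. Where no share is printed beside a list count, it is to be read beside these shares of all genes. A gene under 1 RPKM in every library of a group could be tested only through the other groups, DM-aKG libraries included. This selection favours a difference: 516 of the genes tested were so in WT and 70 in Apc Min control. Groups did not overlap in any library for 2534 genes higher (20.4% of those tested) and 712 lower (5.73%), 26.1% in all. Counts of list members without overlap are to be read beside these shares.

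**Figure D2:**
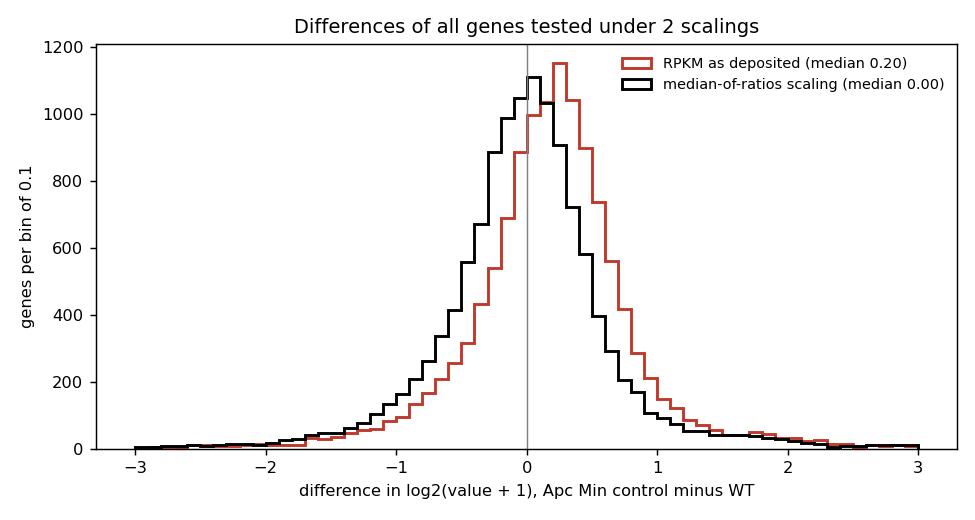
Distribution of the difference in log2(value + 1), Apc Min control minus WT, over the 12431 genes tested, as genes per bin of 0.1 between -3 and 3. The distribution with RPKM as deposited (red, median 0.20) lies to the right of that after median-of-ratios scaling (black, median -0.0025).

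The Apc transcript itself was called higher in Apc Min control libraries as deposited. This gene, on the forward strand of chromosome 18 (34220924 to 34322552, mm10), ranged from 8.69 to 20.2 RPKM with a median of 14.4 in Apc Min control and from 6.80 to 13.9 with a median of 10.3 in WT. The groups overlapped, and its difference of 0.45 (SE 0.16, limma adjusted p = 0.021) lost its call after median-of-ratios scaling (adjusted p = 0.205), without Apc Min control replicate 5 (0.0533) and without WT replicate 1 (0.054). A point mutation need not change the amount of transcript, so this level does not check the genotype labels. Beta-catenin mRNA, from Ctnnb1, was 219.7 to 269 RPKM against 165 to 248, a difference of 0.34 whose call was also lost after median-of-ratios scaling (adjusted p = 0.405).

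Wnt target and feedback genes were higher in Apc Min control almost throughout. Of 23 tested, 22 were called higher and none lower (1 lower after median-of-ratios scaling), with a list median of 1.87 against 0.20 for all genes, and 19 did not overlap between groups. These counts include 4 members, Notum, Wif1, Lef1 and Prox1, that were under 1 RPKM in every WT library and so were tested only through groups in which they are high. Replicates 1 to 4 alone gave a list median of 1.84, and replicates 5 to 7 one of 1.94. Notum encodes a secreted enzyme that strips the lipid from Wnt proteins and lies on the reverse strand of chromosome 11 (120653788 to 120661175). It was 41.1 RPKM in the lowest, 63.3 in the median and 144 in the highest Apc Min control library, against 0.0772, 0.133 and 0.208 in WT. Every Apc Min control library was thus far above every WT library, with a difference of 5.89 (SE 0.54, limma adjusted p = 3.73e-08). Wif1, which binds Wnt proteins outside the cell, was 51.0, 70.9 and 116 RPKM against 0.0682, 0.122 and 0.312. The intracellular brake Nkd1 was 40.4, 50.9 and 75.6 RPKM against 2.79, 3.61 and 4.17. Both were separate between groups in all libraries. Inside the nucleus, the TCF family members on this list, Lef1 and Tcf7, behaved alike. Lef1 was 2.57, 3.36 and 5.71 RPKM against 0.0307, 0.0634 and 0.179, and Tcf7 was 12.9, 14.97 and 24.5 RPKM against 2.09, 2.50 and 3.38.

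The size of the difference varied across the pathway. Prox1, a homeobox gene that marks Wnt-active adenoma cells, was 5.37 to 34.1 RPKM against 0.115 to 0.584 in WT, and the transcription factor Sox4 was 21.4 to 51.7 RPKM against 4.06 to 5.10. Axin2, a limiting part of the destruction complex and a common readout of the pathway, was 22.2, 34.2 and 50.3 RPKM against 6.82, 14.2 and 17.4. Its WT level was already well above 0, and the difference was 1.37 (SE 0.22, adjusted p = 3.25e-05). Myc overlapped between groups, at 7.27, 11.9 and 18.1 RPKM against 2.88, 5.77 and 9.49, with a difference of 1.19 (adjusted p = 5.09e-05). The cyclin gene Ccnd1 was the 1 member not called: it was 7.995, 23.0 and 39.0 RPKM against 19.8, 31.4 and 41.4, a difference of -0.62 (SE 0.29, adjusted p = 0.0703) that was called lower after median-of-ratios scaling, without Apc Min control replicate 6 (0.0189) and without WT replicate 4 (0.048).

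Sp5, a zinc finger gene of the same list, is shown for its sequence because its upstream stretch holds the core letters read by TCF and LEF factors. Its expression was 12.1, 15.3 and 36.5 RPKM against 0.862, 1.61 and 2.41 in WT, with no overlap (difference 2.87, adjusted p = 6.27e-08). The stretch covers bases -110 to -1 before its RefSeq start on the forward strand (chr2:70474813-70474922, GRCm38.p6), and the capitals mark the match, at -104 to -98.

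Sp5: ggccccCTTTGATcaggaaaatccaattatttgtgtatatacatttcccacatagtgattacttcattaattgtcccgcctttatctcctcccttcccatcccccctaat

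The core was searched as CTTTGAT, or with other last letters as CTTTGTT or, in another form, as CTTTGAA, on both strands of a window around each RefSeq start (250 bases before to 50 after). Of the 23 list members, 15 had such a window, and 2 of these held a match (13.3%). Matches stood in 13.9% of all 32851 windows and in 11.3% of the 9693 tested genes with a window. In lists treated below, they stood in 1 of 4 MHC class II genes and 2 of 10 type I interferon-stimulated genes with a window. The same held for 4 of 13 interferon-gamma-induced genes, so a match is not particular to the Wnt list. No match says only that these letters are not in that window. Only 78.0% of the tested genes had a window. Among these, a match stood in 11.3% of 4165 genes called higher and in 12.4% of 1506 called lower.

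Crypt base stem cell genes were mixed. Of 14, 7 were higher and 2 lower, near the 43.2% and 15.7% of all genes. The 2 lower were Olfm4 and the BMP co-receptor gene Rgmb, and the list median was 0.64. After median-of-ratios scaling the counts were again 7 and 2, against 26.6% and 27.3% of all genes. Lgr5, the receptor that marks cycling crypt base stem cells, was 3.64, 11.7 and 28.0 RPKM in Apc Min control and 0.528, 2.37 and 3.90 in WT. Only the extremes overlapped, and the difference was 1.96 (SE 0.37, adjusted p = 0.000161). Olfm4, a secreted glycoprotein of the same cells, was 3.76, 14.9 and 83.4 RPKM against 15.97, 80.9 and 163, a difference of -1.87 (adjusted p = 0.0272). Both groups spread over more than 10-fold, and the Olfm4 call ended (adjusted p 0.051 to 0.0658) on leaving out any of Apc Min control replicates 1, 3 and 4 and WT replicates 3, 5 and 7. Igfbp4, a secreted binding protein for insulin-like growth factors, was 97.5 to 156 RPKM against 18.8 to 25.2 without overlap. Mex3a, an RNA-binding protein of slowly cycling crypt cells, was 2.90 to 6.46 RPKM against 0.166 to 0.358, also without overlap. Smoc2 (difference 0.20, adjusted p = 0.288) and Hopx (0.35, adjusted p = 0.105) were not called.

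Genes of fetal and regenerating epithelium were higher as a set: 12 of 14 tested were called higher, 11 after median-of-ratios scaling, and none lower under either, with a median of 1.97. Clu encodes the chaperone clusterin, marks revival stem cells after injury, and lies on the forward strand of chromosome 14 (65968483 to 65981547). It was 485, 710.1 and 1116 RPKM in Apc Min control and 8.20, 10.9 and 34.3 in WT. No library overlapped (log2 difference 5.68, SE 0.41, adjusted p = 1.50e-09). Annexin genes Anxa1 (72.1 to 174 RPKM against 3.80 to 8.97) and Anxa3 (14.1 to 26.2 against 2.99 to 4.77) did not overlap either. The interleukin-1 antagonist Il1rn was 13.2 to 29.9 RPKM against 0.612 to 1.498, and the ductal keratin Krt7 was 98.0 to 252 RPKM against 23.8 to 61.1. Emp1 (adjusted p = 0.0507) and Il33 (0.238) were not called, although Emp1 was without Apc Min control replicate 1 or WT replicate 2 or 4 (0.0233 to 0.0379).

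Genes of stomach and other tissues that are nearly silent in WT intestine reached high levels. All 9 tested of a list of 16 were higher, with a median of 4.15. In 7 of these 9 every library of WT lay under 1 RPKM. They passed the filter on low values only through libraries of the other groups, which favours a difference. The remaining 7 members were below the filter. Wfdc18, a small secreted whey acidic protein, had the largest difference of all genes named by the rule used here (7.39, SE 0.60, adjusted p = 7.76e-09), at 103, 187 and 326 RPKM against 0, 0.0643 and 0.326. Gkn3, a gastrokine of stomach epithelium, was 37.5, 67.9 and 189 RPKM against 0.0447, 0.0491 and 0.386. Ctse, a protease of gastric surface cells, was 76.4, 102 and 177 RPKM against 0.431, 0.987 and 2.08. All 3 genes were thus among the well-expressed genes of Apc Min control libraries and at or near 0 in WT. Muc6, the mucin of gastric glands, was 6.64 to 32.8 RPKM against at most 0.0080. Other stomach products were low, with Gkn1, Tff1, Tff2, Muc5ac and Pgc each at most 2.59 RPKM in Apc Min control.

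Several genes outside any list had differences as large. Bpifb5 and its neighbour Bpifb9a, secreted lipid-binding proteins on chromosome 2, were 32.7 to 67.2 RPKM and 10.3 to 64.3 RPKM in Apc Min control. Bpifb9a was listed at 0 in all 7 WT libraries and Bpifb5 at 0.0208 RPKM or less. The complement inhibitor Cfi was 54.1 to 120.1 RPKM against 0.145 to 0.957, and the amino acid transporter Slc38a4 was 25.5 to 111 RPKM against 0.0681 to 0.227. Plat, the tissue plasminogen activator, was 115 to 239 RPKM against 2.18 to 4.93, and the retinol receptor Stra6 was 12.8 to 37.0 RPKM against 0.0420 to 0.653. Albumin, from Alb, was 19.4 to 64.1 RPKM against at most 2.29. These genes were named for large, separated differences, so their separation is a description.

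**Figure D3:**
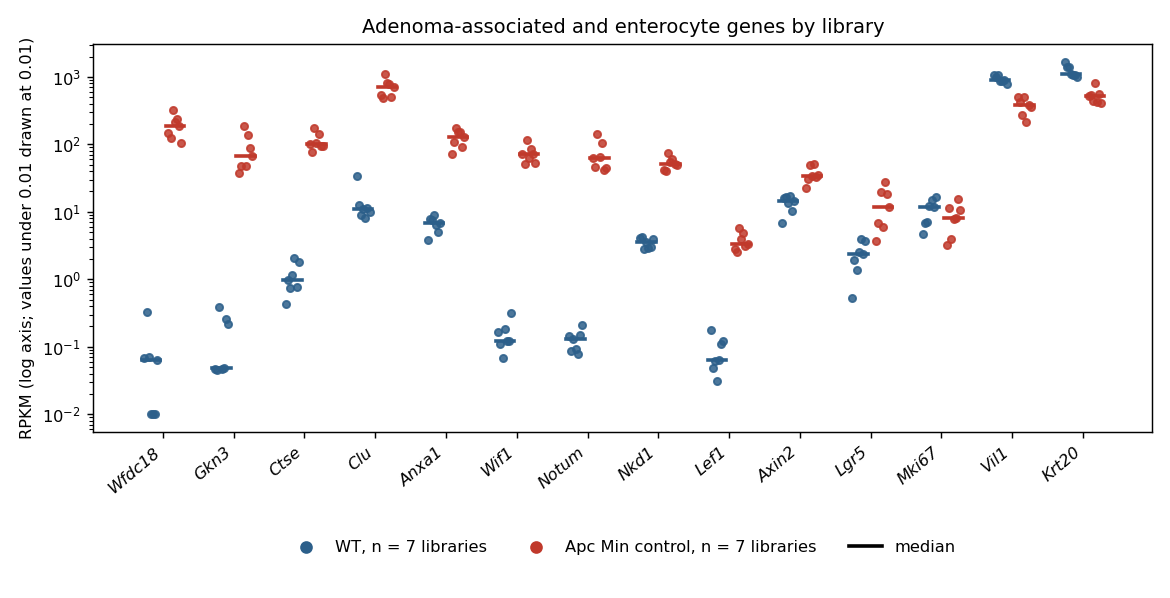
RPKM (log axis, values under 0.01 drawn at 0.01) of 14 genes in the 7 WT (blue) and 7 Apc Min control (red) libraries, with 1 point per library and a bar at the median. From Wfdc18 to Axin2 the groups do not overlap and Apc Min control is higher, Lgr5 and Mki67 overlap, and Vil1 and Krt20 are lower in every Apc Min control library.

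Proliferation genes did not share this pattern. Of 25 tested, 2 were higher (Rrm2 and Mcm7), 2 lower (Birc5 and Ube2c) and 21 not called, with a median of -0.07. Mki67, present in cycling cells, was 3.21, 8.11 and 15.3 RPKM in Apc Min control and 4.73, 11.7 and 16.5 in WT, and its difference of -0.30 (SE 0.30) did not pass (adjusted p = 0.404). Top2a likewise overlapped, at 4.70 to 26.2 RPKM against 9.11 to 22.5 (adjusted p = 0.5). Rrm2, a subunit of ribonucleotide reductase, was 10.2, 11.4 and 36.3 RPKM against 3.69, 5.56 and 7.68, without overlap. Calls of the other 3 were fragile, as leaving out any 1 of several libraries ended them. The Mcm7 call was lost on leaving out any 1 of 7 (Apc Min control replicates 2, 4, 6 and 7, WT replicates 1, 2 and 3). The Birc5 call was lost with any 1 of 6 left out (Apc Min control 1, 3 and 5, WT 3, 5 and 7). For Ube2c it was any 1 of 9 (Apc Min control 1, 3, 5 and 7, WT 2, 3, 4, 5 and 7). After median-of-ratios scaling 1 gene of this list was higher and 4 were lower.

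Ribosome biogenesis genes were higher by small amounts. As deposited 15 of 18 were higher, against 43.2% of all genes, and none lower (median 0.52). After median-of-ratios scaling 8 were higher, against 26.6% of all genes, and 1 lower, the rRNA processing factor Bop1. The nucleolar genes Npm1 (145, 174 and 201 RPKM against 67.9, 88.4 and 109) and Ncl (43.6, 59.7 and 62.9 against 21.4, 29.2 and 35.5) did not overlap and were higher under both scalings.

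Growth factor genes of the EGF family were higher in 6 of 10, with none lower and a median of 0.82 (5 higher and 1 lower after median-of-ratios scaling). Of all genes 43.2% were higher, and 26.6% after that scaling. The receptor gene Egfr was 5.70, 9.74 and 17.01 RPKM in Apc Min control and 2.30, 2.78 and 3.51 in WT (difference 1.53, adjusted p = 1.42e-06). Its partner Erbb2 did not differ beyond the spread (0.04, adjusted p = 0.827). Among ligands, betacellulin from Btc was 4.22 to 11.3 RPKM against 1.09 to 1.61 and amphiregulin from Areg was 7.72 to 18.7 RPKM against 1.77 to 4.09, both without overlap, whereas Ereg spread from 2.52 to 37.6 RPKM and was not called (adjusted p = 0.0858) unless Apc Min control replicate 1 was left out (0.0254). Of 12 BMP and TGF-beta genes 6 were higher, near the 43.2% of all genes, and none lower, with a median of 0.32 (5 higher and a median of 0.08 after median-of-ratios scaling). These included the activin subunit Inhba, at 2.82 to 11.2 RPKM against 0.234 to 0.778, and Bmp7, at 4.56 to 10.5 RPKM against 0.768 to 2.48. The BMP target Id1 (adjusted p = 0.839) and the antagonist Grem1 (0.921) were not called.

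Epithelial lineages differed in direction. Of 15 common epithelial genes 4 were higher and 4 lower, against 43.2% and 15.7% of all genes. After median-of-ratios scaling 3 were higher and 7 lower, against 26.6% and 27.3% of all genes. Krt18 and Cldn4, a keratin and a tight junction protein, were higher without overlap (371 to 605 RPKM against 90.1 to 169.5, and 95.9 to 219 against 29.0 to 59.8). Cdh17, the liver-intestine cadherin, was lower without overlap (250.9 to 377 against 468 to 537). Epcam was not called as deposited (-0.23, adjusted p = 0.069) and was called lower after median-of-ratios scaling (0.0022), without Apc Min control replicate 4 (0.0283) and without WT replicate 7 (0.0474).

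Absorptive enterocyte genes were lower in 14 of 28 (17 after median-of-ratios scaling), with a median of -0.71, and 1, Apoa4, was higher. Of all genes 15.7% were lower, and 27.3% after that scaling. Vil1, which bundles the actin of microvilli, was 214, 384 and 499.9 RPKM in Apc Min control and 796, 882 and 1071 in WT. The highest Apc Min control library lay below the lowest WT library, and the difference was -1.34 (SE 0.17, adjusted p = 1.55e-06). The mature-cell keratin Krt20 (413, 528 and 808 against 979, 1118 and 1680), the glucose transporter Slc5a1 (154, 225 and 391 against 454, 562 and 894) and the peptidase Dpp4 (36.0, 76.8 and 109 against 151, 180 and 199) were lower in the same way. Not every enterocyte gene was lower. Sucrase-isomaltase from Sis (258, 621 and 698 against 445, 609.8 and 789, adjusted p = 0.542), Apob (0.344) and Apoa1 (0.321) overlapped. Replicates 1 to 4 alone gave a list median of -0.38, and replicates 5 to 7 one of -1.04.

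Some enterocyte genes varied widely among WT libraries. Lactase, from Lct, was 229, 114, 32.6, 150.0 and 57.3 RPKM in WT replicates 1, 3, 5, 6 and 7 but 0.149 and 0.171 in WT replicates 2 and 4, and 0.0169 to 3.17 in Apc Min control. WT replicates 2 and 4 were also lowest in WT for the proximal transcription factor Gata4 (1.602 and 0.486 RPKM, the others 12.0 to 22.1) and for Adh6a (10.1 and 5.09, the others 31.2 to 145.6). The ileal bile acid binding gene Fabp6 was 158 RPKM in WT replicate 1 and 2838 to 9728 in the other 6 WT libraries, against 684 to 5023 in Apc Min control. The ileal bile acid transporter Slc10a2 was likewise lowest in WT replicate 1 (16.4 RPKM, the others 52.9 to 327). Markers of intestinal segments thus differed among WT libraries, and their part in other differences was not tested. Across groups, Lct (-4.09, SE 1.25, adjusted p = 0.00885), Gata4 (-1.92, 0.0163) and Adh6a (-2.60, 0.00199) were lower in Apc Min control, whereas Fabp6 (0.643) and Slc10a2 (0.942) were not called. Of 6 proximal genes tested 3 were lower and 2 higher. The higher ones were Onecut2, a homeobox gene of the duodenum (7.09 to 18.8 RPKM against 0.0349 to 0.466), and Cybrd1. Of 6 ileum genes 1, Clec2h, was higher, and after median-of-ratios scaling none was higher and 1, Slc51a, was lower, as it was without Apc Min control replicate 1 or 2 or WT replicate 1 (adjusted p 0.0177 to 0.0498).

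Secretory lineages differed among themselves. Of 12 Paneth cell genes 9 were lower and 3 higher (median -2.26). Lysozyme, from Lyz1, was 176, 274 and 2069.6 RPKM in Apc Min control and 373, 1215 and 3454 in WT, with a difference of -1.54 (SE 0.54, adjusted p = 0.0202). The alpha-defensin Defa22 was 43.4, 91.8 and 2144 RPKM against 421, 1347 and 3610.4. The groups overlapped because Apc Min control replicates 5 to 7 were high (456 to 2144 RPKM for Defa22, against 43.4 to 91.8 in replicates 1 to 4). Replicates 1 to 4 alone gave a list median of -2.80, and replicates 5 to 7 one of -1.13. Defensin copies are near-identical, and how reads were divided among them is not given. The 3 higher members were Pla2g2a (164, 242 and 573 RPKM against 11.6, 17.4 and 40.5), Mmp7 (112, 149 and 330 against 10.7, 38.3 and 111) and Habp2 (15.8, 24.1 and 37.0 against 0.701, 1.505 and 5.60), none overlapping. Pla2g2a, a secreted phospholipase, is known to modify tumour number in Apc Min mice, and the annotation lists it as a polymorphic pseudogene because some strains carry a disrupted copy. With no strain given, a difference in strain and the genotype cannot be told apart here.

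Of 14 goblet cell genes 7 were lower and 3 higher (9 and 2 after median-of-ratios scaling), with a median of -0.61. Of all genes 15.7% were lower and 43.2% higher (27.3% and 26.6% after that scaling). The mucus-processing protein gene Clca1 was 32.0, 148 and 309 RPKM against 436, 688 and 1006, without overlap, and the gel-forming mucin Muc2 was 134, 235 and 352 RPKM against 243, 376 and 476, with overlap. Retnlb, a goblet cell product induced in inflammation, went the other way, at 2.50 to 8.55 RPKM against at most 0.108. Enteroendocrine hormone genes were mostly not called (2 of 12 higher, Pyy and Ghrl, and after median-of-ratios scaling 1 higher, without Ghrl, and 2 lower, Chga and Sst, which were also called lower as deposited without WT replicate 4 (adjusted p 0.0412 and 0.0246) and, for Sst, without Apc Min control replicate 1 (0.00517)). Peptide YY from Pyy was 28.1 to 96.0 RPKM against 13.96 to 37.8. Of 7 tuft cell genes 2 were higher and 2 lower (2 and 4 after median-of-ratios scaling), against 43.2% and 15.7% of all genes as deposited. Avil, a villin-like gene used as a tuft cell marker, was 17.7, 28.8 and 36.8 RPKM against 1.53, 2.19 and 2.83, while the tuft cell gene Dclk1 did not differ beyond its spread (0.579 to 1.71 against 0.741 to 1.31, adjusted p = 0.967) and the channel gene Trpm5 was lower (0.516 to 1.55 against 1.41 to 2.57).

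**Figure D4:**
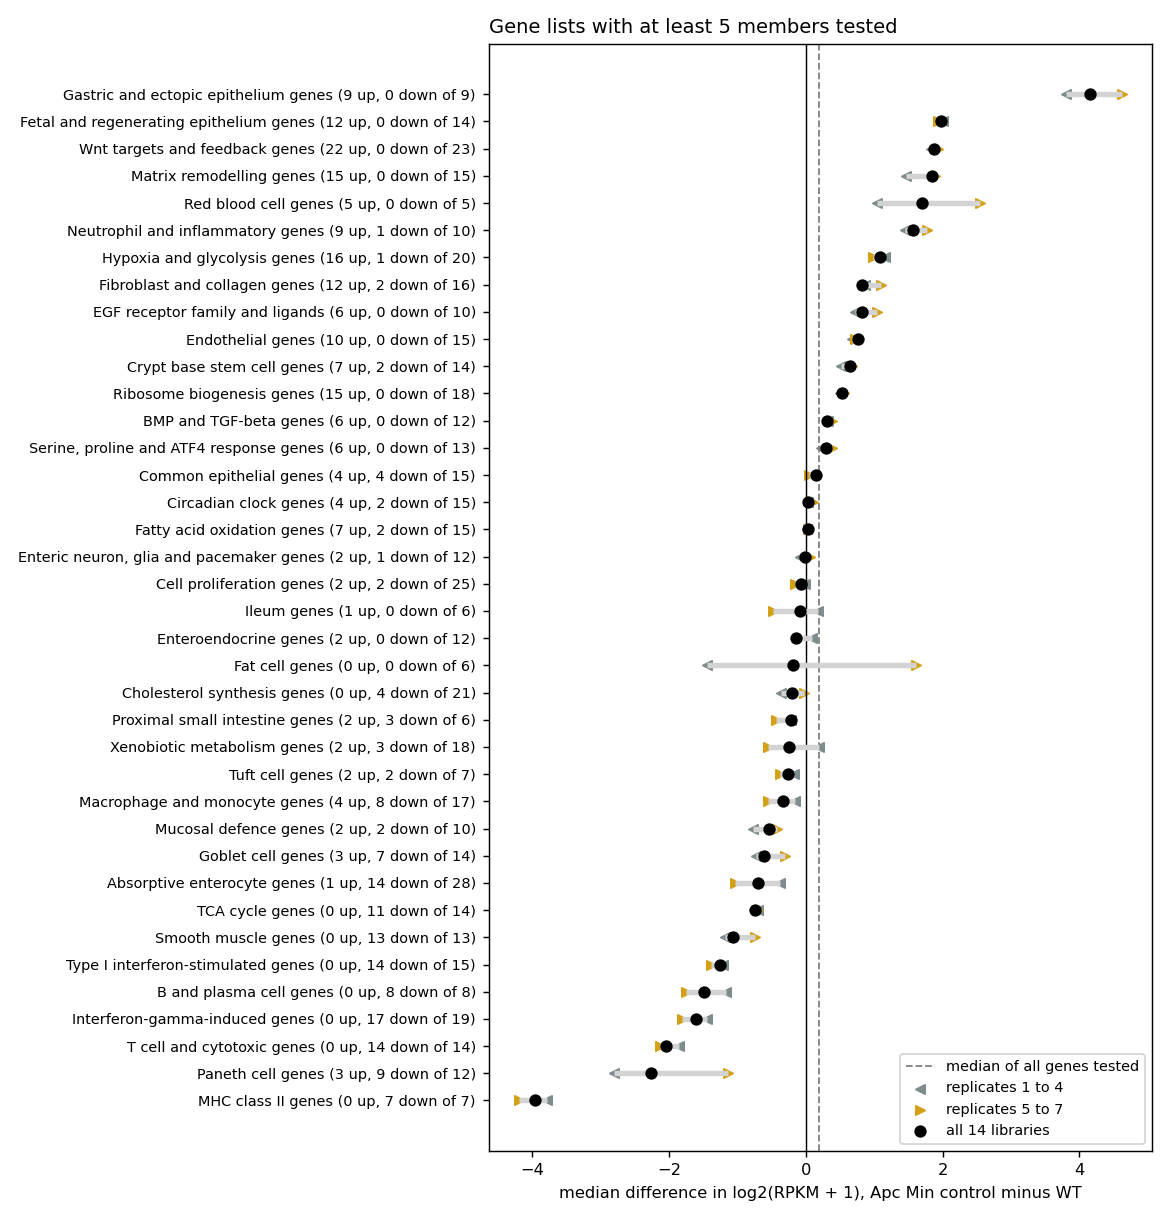
Median difference in log2(RPKM + 1), Apc Min control minus WT, of the gene lists with at least 5 members tested (black points), with the medians within replicates 1 to 4 (grey) and 5 to 7 (yellow), the median of all genes tested (dashed line) and the number of members called higher and lower. MHC class II genes lie lowest (-3.96) and gastric and ectopic genes highest (4.15). Paneth cell, red blood cell and fat cell genes differ most between the replicate sets.

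Stromal genes split by type. All 13 smooth muscle genes were lower (median -1.06, -1.28 after median-of-ratios scaling, against 15.7% of all genes called lower), and 2 of them, Mylk and Lmod1, did not overlap. Myh11 was 36.8, 84.1 and 139.9 RPKM in Apc Min control and 123, 145 and 194 in WT (difference -1.06, SE 0.22, adjusted p = 0.000405). Summed over the list, smooth muscle genes held 460.2, 780.3 and 1554 RPKM against 1190.1, 1550.2 and 2036. Replicates 1 to 4 alone gave -1.19, and replicates 5 to 7 alone -0.74. Smooth muscle transcripts thus differed between the groups. With the mean of these genes as a covariate 2931 genes were higher and 573 lower. Under that covariate 33 of the 150 named genes called lost their call with the sign kept. Among them were Lgr5, Olfm4, Lyz1, Muc2, Rrm2, Pdk4, Ogdh and Col3a1. Myh11 and Lmod1, which are part of the covariate, were also among them. Calls of Dpt, Nos2 and Pmvk ended too, with the sign turned.

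Fibroblast and matrix genes went up. Of 16 fibroblast and collagen genes 12 were higher and 2, Postn and Dpt, lower (11 and 3 after median-of-ratios scaling), with a median of 0.83. Col1a1, the main collagen chain of scar and tumour stroma, was 39.4, 54.6 and 78.8 RPKM in Apc Min control and 7.35, 12.6 and 15.7 in WT. No library overlapped, and the difference was 2.10 (SE 0.24, adjusted p = 4.10e-07). Col3a1 differed less, at 36.4, 53.3 and 76.3 RPKM against 12.3, 30.2 and 36.2. All 15 matrix remodelling genes tested were higher, 14 after median-of-ratios scaling, and 12 did not overlap. Of these 15, 4 were under 1 RPKM in every WT library, among them Timp1, Lox and Spp1. The membrane collagenase Mmp14 was 56.3, 65.6 and 109.8 RPKM against 6.83, 9.88 and 10.5, and the secreted collagenase Mmp13 was 6.52, 21.5 and 35.1 RPKM against 1.04, 1.59 and 3.13. Timp1, an inhibitor of such proteases, was 7.09 to 11.6 RPKM against 0.268 to 0.786, and Plaur, the urokinase receptor, was 9.20 to 20.2 RPKM against 1.19 to 2.26. Protease, inhibitor and receptor were each higher in every Apc Min control library.

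Endothelial genes were higher in 10 of 15, against 43.2% of all genes, with none lower and a median of 0.76. Cdh5, the adhesion molecule of vessel walls, was 6.66, 9.02 and 12.6 RPKM against 1.52, 3.03 and 3.80, and Pecam1 was 9.22, 11.1 and 14.4 RPKM against 4.14, 7.41 and 8.60. Neither overlapped. The vessel genes Kdr (0.34, adjusted p = 0.128) and Plvap (0.33, adjusted p = 0.1) were not called, but Plvap was without WT replicate 5 (0.045) or 7 (0.0436). Sox17, an endothelial and endodermal transcription factor, had the largest difference of the list (2.86 to 13.3 RPKM against 0.125 to 0.333). All 5 haemoglobin and haem genes tested were higher, with overlap, for example Hbb-bs at 2.43, 36.3 and 89.2 RPKM against 3.14, 6.80 and 13.6. Replicates 1 to 4 alone gave them a median of 1.04 and replicates 5 to 7 one of 2.55, and near-identical globin copies cannot be told apart here. Enteric neuron, glia and pacemaker genes were mostly not called, with 2 higher and 1 lower of 12 (2 and 5 after median-of-ratios scaling). The 2 higher, Ret and Ano1, are also expressed outside neurons and pacemaker cells, and the lower one was the neuropeptide Vip. None of 6 fat cell genes was called (0 of 6, also by the median-of-ratios fit). Single libraries held much fat cell RNA, with Car3 at 291 RPKM in Apc Min control replicate 6 and 257 in WT replicate 3, and the list median ran from -1.45 within replicates 1 to 4 to 1.61 within replicates 5 to 7. Of 10 exocrine pancreas genes only Cela1 and Clps were tested, and the 8 others, digestive enzymes, were at or below 0.0788 RPKM in every library. Cela1 was 23.5, 26.9 and 60.3 RPKM against 1.94, 2.85 and 3.72.

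The antigen presentation genes gave the most uniform decrease. All 7 MHC class II genes were lower in Apc Min control, none overlapped between groups, and the list median was -3.96 (-3.78 for replicates 1 to 4 alone, -4.20 for replicates 5 to 7 alone). Class II molecules show peptides to helper T cells, and in the small intestine they are made by enterocytes as well as by professional immune cells. H2-Aa encodes the alpha chain and lies on the reverse strand of chromosome 17 (34282744 to 34287823). It was 22.4, 48.7 and 91.6 RPKM in Apc Min control and 585, 810.5 and 1065 in WT. The highest Apc Min control library was far below the lowest WT library, and the log2 difference was -4.09 (SE 0.25, adjusted p = 2.31e-10). The beta chain gene H2-Ab1 was 13.2 to 58.8 RPKM against 397 to 758, and H2-Eb1 was 7.09 to 40.7 RPKM against 170.3 to 292. The peptide loading genes H2-DMa (2.12 to 5.93 against 32.0 to 51.4) and H2-DMb1 (1.05 to 7.56 against 60.3 to 103) were lower too. These 5 genes stand together on chromosome 17, between positions 34119541 and 34316674. Members located elsewhere were lower as well: the invariant chain Cd74, on chromosome 18, was 40.3, 96.6 and 156 RPKM against 1050.3, 1407 and 1708, and the class II transactivator Ciita, on chromosome 16, was 0.0672, 0.274 and 1.48 RPKM against 5.35, 6.27 and 8.49. Labels give no MHC haplotype of the mice, and the effect of sequence differences in the H2 genes on mapping was not tested.

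The promoters of these genes are shown because they share the X and Y boxes, short motifs through which RFX and NF-Y factors bring CIITA to class II genes. RefSeq windows existed for H2-Aa, H2-DMa, H2-DMb1 and H2-Eb1. Bases -110 to -1 before the start are printed for 3 of them, with capitals for the letters TGATTGG (Y box core) and ACNGATG (X box core): H2-Eb1 (chr17:34305757-34305866, forward), H2-DMb1 (chr17:34153081-34153190, forward) and H2-Aa (chr17:34287824-34287933, reverse strand), all GRCm38.p6.

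H2-Eb1: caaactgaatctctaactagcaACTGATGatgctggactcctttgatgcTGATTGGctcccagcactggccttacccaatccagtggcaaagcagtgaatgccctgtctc

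H2-DMb1: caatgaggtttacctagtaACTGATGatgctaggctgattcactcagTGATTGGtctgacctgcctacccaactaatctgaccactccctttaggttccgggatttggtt

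H2-Aa: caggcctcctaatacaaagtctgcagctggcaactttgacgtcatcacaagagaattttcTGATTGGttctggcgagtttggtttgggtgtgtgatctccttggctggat

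In H2-Eb1 the X letters stand at -88 to -82 and the Y letters at -61 to -55, and in H2-DMb1 at -91 to -85 and -63 to -57. H2-Aa has the Y letters at -50 to -44. The H2-Eb1 stretch also holds the TCF and LEF letters CTTTGAT, left in lower case. Within the whole windows, searched on both strands, 3 of the 4 genes held the Y letters and 3 of 4 the X letters. Of all 32851 windows, 7.82% held the Y and 9.85% the X letters. Of the tested genes with a window, 11.3% held the Y and 8.34% the X letters.

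Interferon-induced genes were lower with them. Of 19 interferon-gamma-induced genes 17 were lower and none higher (median -1.60), all 19 after median-of-ratios scaling, and 11 did not overlap. Ubd encodes the ubiquitin-like protein FAT10 and had the largest decrease of the genes named by the rule. It was 0.0391, 0.877 and 3.10 RPKM in Apc Min control and 5.51, 62.1 and 162 in WT (difference -4.47, SE 0.54, adjusted p = 1.26e-06). WT libraries spread over more than 10-fold. Ido1, which degrades tryptophan, was 0.196, 2.995 and 7.02 RPKM against 16.6, 45.2 and 67.2. Genes for making class I peptides were lower, with the immunoproteasome subunit Psmb8 at 4.26, 9.77 and 18.8 RPKM against 45.4, 75.7 and 105 and the peptide transporter Tap1 at 2.51, 3.44 and 9.70 RPKM against 14.9, 33.7 and 39.9. Psmb9 was 1.23 to 11.1 RPKM against 28.0 to 74.9; it overlaps Tap1 on the opposite strand, and whether counting used strand is not given. Gbp9 (adjusted p = 0.105) and Tgtp1 (0.0514) were not called. Gbp9 was called lower without Apc Min control replicate 5 or WT replicate 4 (0.0272 to 0.049), and Tgtp1 without Apc Min control replicate 1 or 6 or WT replicate 4 (0.00967 to 0.0324). Outside the lists, Upp1, a uridine phosphorylase, was 3.35, 9.73 and 25.6 RPKM against 92.7, 162 and 283.

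Of 15 type I interferon-stimulated genes 14 were lower and none higher (median -1.26), all 15 after median-of-ratios scaling. The antiviral genes Oasl2 (0.561 to 4.83 RPKM against 12.8 to 37.7) and Ifit1 (0.869 to 4.44 against 7.71 to 22.8) did not overlap, whereas Irf7 did (6.21 to 32.4 against 30.0 to 53.8, adjusted p = 0.00251). Ifit2 was the 1 gene not called as deposited (-0.16, adjusted p = 0.28). Promoters of 3 such genes are printed, from -110 to -1 before the RefSeq start (GRCm38.p6), with capitals for AAANNGAAA or its reverse complement, the core letters of interferon response elements: Gbp2 (chr3:142620553-142620662, forward), Irgm2 (chr11:58214867-58214976, forward) and Isg15 (chr4:156200819-156200928, reverse strand).

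Gbp2: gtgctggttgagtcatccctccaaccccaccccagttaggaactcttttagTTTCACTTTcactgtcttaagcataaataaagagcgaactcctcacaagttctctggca

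Irgm2: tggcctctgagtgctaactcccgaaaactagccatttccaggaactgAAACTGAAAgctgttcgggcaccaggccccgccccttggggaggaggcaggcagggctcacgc

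Isg15: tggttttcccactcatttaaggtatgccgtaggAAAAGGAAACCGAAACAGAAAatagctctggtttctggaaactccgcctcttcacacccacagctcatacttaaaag

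Gbp2 and Irgm2 encode interferon-gamma-induced GTPases and Isg15 a ubiquitin-like protein of the type I response. Gbp2 was 1.36, 2.67 and 9.89 RPKM in Apc Min control against 10.3, 16.3 and 23.5 in WT, Irgm2 was 3.24, 4.48 and 7.24 against 10.7, 18.7 and 26.6, and Isg15 was 0.184, 1.84 and 3.43 against 4.73, 11.3 and 24.2. None overlapped. In Isg15 3 overlapping matches run from -77 to -57. The letters stood in the windows of 9 of 13 interferon-gamma-induced and 7 of 10 type I genes that had one, against 10.6% of all windows. Of the tested genes with a window, 9.83% held them.

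Lymphocyte genes were lower. All 14 T cell and cytotoxic genes tested (of 21) were called lower, 13 without overlap, with a median of -2.04. Of these, Cd3d, Itgae and Xcl1 were under 1 RPKM in every Apc Min control library and were tested only through groups in which they are high. Cd3e, a subunit of the T cell receptor complex, was 0.255, 1.02 and 1.83 RPKM in Apc Min control and 4.12, 7.62 and 9.65 in WT. Granzyme A, from Gzma, was 0.515, 4.56 and 22.1 RPKM against 29.8, 78.5 and 101, and Itgae, the integrin that holds T cells within the epithelium, was 0.479, 0.638 and 0.882 RPKM against 1.96, 3.33 and 5.67. Each of these was lower in every Apc Min control library. Summed over the list, levels were 7.60 to 55.8 RPKM against 104.5 to 260.4. Of the 7 untested members, Foxp3 and Ctla4, genes of regulatory T cells, were at or below 0.935 RPKM in every library. All 8 B and plasma cell genes tested (of 12) were lower, with a median of -1.49. Jchain was 34.4, 63.4 and 107 RPKM against 197, 485 and 689 (difference -2.81, SE 0.30, adjusted p = 2.23e-07), and Pigr, the epithelial receptor that carries IgA into the lumen, was 67.6, 115 and 243 RPKM against 411, 690.3 and 862. Neither overlapped between groups.

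Myeloid genes did not move as 1 block. Of 17 macrophage and monocyte genes 8 were lower and 4 higher (12 and 4 after median-of-ratios scaling). Of all genes 15.7% were lower and 43.2% higher (27.3% and 26.6% after that scaling). The receptor gene Csf1r was lower with overlap (3.81, 4.54 and 6.24 RPKM against 4.79, 12.0 and 14.8). Cd14, the endotoxin co-receptor (5.90, 8.27 and 11.7 against 1.98, 2.65 and 4.605), and the mannose receptor Mrc1 (3.59, 4.74 and 5.95 against 1.40, 2.25 and 2.93) were higher without overlap. Of 10 neutrophil and inflammatory genes tested, 9 were higher and 1, the nitric oxide synthase Nos2, was lower, with a median of 1.57. The Nos2 call ended without any of Apc Min control replicates 3, 5 and 7 and WT replicates 2 and 5 (adjusted p 0.0515 to 0.0796). In 7 of them every WT library was under 1 RPKM, so they reached the test through the groups in which they are high. S100a9, a calprotectin subunit, was 1.91, 2.64 and 8.89 RPKM against 0, 0.130 and 0.338. The cytokine Il11 was 0.631, 4.35 and 11.3 RPKM against 0.0762, 0.0939 and 0.182, and the chemokine Cxcl2 was 1.52, 2.84 and 4.77 RPKM against at most 0.0982. Levels were thus low in absolute terms and separate between groups. The 3 mast cell genes tested (of 11) were higher, but Mcpt2 and Gata2 were under 1 RPKM in every WT library and were tested only through groups in which they are high. The other was Mcpt1. The mucosal protease gene Mcpt2 was at 1.85, 5.48 and 18.3 RPKM against 0.116, 0.468 and 0.807. Among 10 mucosal defence genes, 2 were higher and 2 lower (2 and 3 after median-of-ratios scaling): Lcn2, which withholds iron from bacteria (38.0, 90.4 and 118 RPKM against 0.914, 1.12 and 3.14), and Saa3 were higher, and Pigr and the oxidase Duox2 were lower. Reg3b (adjusted p = 0.511) and Reg3g (0.0685) were not called. Reg3g was called lower without Apc Min control replicate 1 or 6 or WT replicate 7 (0.0136 to 0.0454).

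**Figure D5:**
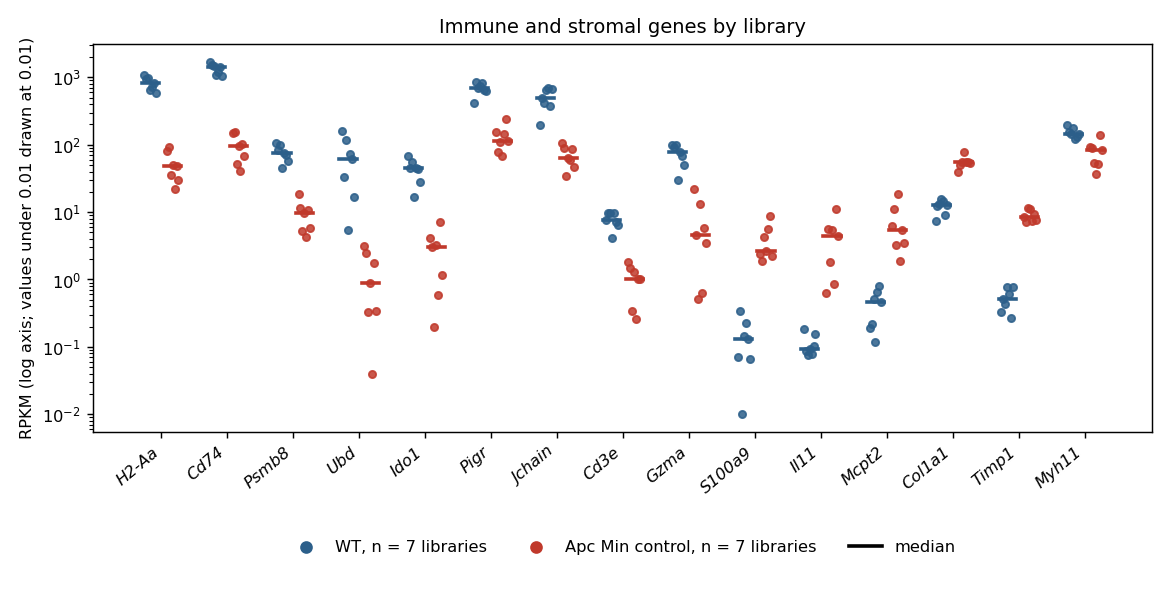
RPKM (log axis, values under 0.01 drawn at 0.01) of 15 immune and stromal genes in the 7 WT (blue) and 7 Apc Min control (red) libraries, with 1 point per library and a bar at the median. From H2-Aa to Gzma every Apc Min control library is below every WT library, from S100a9 to Timp1 every one is above, and Myh11 overlaps.

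Energy metabolism genes separated by pathway. Of 20 hypoxia and glycolysis genes 16 were higher and 1, the phosphofructokinase Pfkp, was lower (15 and 1 after median-of-ratios scaling), with a median of 1.08. The glucose transporter gene Slc2a1, also known as Glut1, was 27.1, 45.0 and 77.3 RPKM in Apc Min control and 3.46, 4.92 and 6.30 in WT (difference 3.06, SE 0.29, adjusted p = 4.88e-08). The mitophagy gene Bnip3 was 32.9, 49.3 and 69.8 RPKM against 8.85, 9.96 and 15.5, and the vessel growth factor Vegfa was 24.6, 36.3 and 40.1 RPKM against 13.1, 18.9 and 20.1. All 3 were without overlap. Lactate dehydrogenase from Ldha (0.11, adjusted p = 0.633) and hexokinase 2 from Hk2 (0.30, 0.458) did not pass. TCA cycle genes were lower in 11 of 14 (13 after median-of-ratios scaling) with none higher and a median of -0.74. Citrate synthase, from Cs, was 95.4, 155 and 195 RPKM against 280.1, 298 and 415, and Ogdh, which oxidizes alpha-ketoglutarate, was 19.0, 47.3 and 56.9 RPKM against 89.3, 113 and 143. The cytosolic malate dehydrogenase Mdh1 was 47.03, 99.1 and 138 RPKM against 169, 266 and 465. Each of these 3 was lower in every Apc Min control library.

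Of 15 fatty acid oxidation genes 7 were higher and 2 lower, near the 43.2% and 15.7% of all genes, with a median of 0.03. After median-of-ratios scaling 5 were higher and 6 lower, against 26.6% and 27.3% of all genes. Pdk4, a kinase that holds back pyruvate oxidation, was 0.993 to 2.01 RPKM in WT and higher in every Apc Min control library, but unevenly: it was 91.4, 126.7 and 94.5 RPKM in replicates 1, 3 and 5 and 14.5, 13.5, 3.15 and 14.8 RPKM in replicates 2, 4, 6 and 7. Acadl, the long-chain acyl-CoA dehydrogenase, was more even, at 67.4, 86.4 and 119 RPKM against 29.7, 33.6 and 49.6. Of 13 serine, proline and ATF4 response genes 6 were higher, near the 43.2% of all genes, and none lower (4 and 3 after median-of-ratios scaling), among them the first enzyme of serine synthesis, Phgdh (4.13 to 10.3 RPKM against 2.24 to 5.03), while Atf4 itself was not called (adjusted p = 0.631).

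Cholesterol synthesis genes were mostly not called, with none higher and 4 of 21 lower, near the 15.7% of all genes. Among the lower ones were Sqle, Ebp and Pmvk. After median-of-ratios scaling 9 were lower, against 27.3% of all genes. The Pmvk call ended without any of Apc Min control replicates 3 and 5 and WT replicates 2 and 4. Of 18 xenobiotic genes 3 were lower and 2 higher, against 15.7% and 43.2% of all genes (4 and 2 after median-of-ratios scaling). The glutathione transferase Gstm3 was lower, at 0.379, 1.40 and 3.50 RPKM against 3.47, 33.5 and 40.9; its lowest WT values, 3.47 and 4.26 RPKM, were those of replicates 2 and 4, which were also low in Lct. Another transferase, Gsta4, was higher (24.5 to 34.01 against 9.80 to 18.3). Of 15 clock genes 4 were higher and 2 lower, against 43.2% and 15.7% of all genes (2 and 5 after median-of-ratios scaling). Dbp (8.86, 11.5 and 15.6 RPKM against 24.03, 27.1 and 45.3) and Nr1d1 (11.01, 15.6 and 33.4 against 34.2, 43.9 and 51.9) were lower and the opposing repressor Nfil3 was higher (3.93, 5.88 and 12.5 against 1.16, 1.92 and 2.58), all without overlap. The core factors Clock (adjusted p = 0.976) and Arntl (0.8) were not called. Time of collection is not in the labels, so a difference in sampling hour between groups was not tested.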

How the data were processed

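RNA sequencing values of intestinal libraries were analysed as deposited: the tools named, per the submitters' processing notes, are CASAVA 1.8, HISAT2 2.0.4 and Partek, with mm10 as the build. Their order, the annotation and the strand setting are not stated there. The table deposited by the authors does not name its unit, and its values were taken as RPKM because they are not whole and their low values rise in steps whose size varies from gene to gene. Depth was estimated from the step that 1 read makes in low values. Of 24795 genes, 26 date-like names were kept as listed, 4 rows with repeated names were left out and 4272 were 0 in every library.

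A gene was tested if 6 or more of all 20 libraries reached 1 RPKM. Testing was on log2(RPKM + 1), a pseudocount of 1, so that differences of low genes are understated. limma 3.58.1 (R 4.3.3, statmod 1.5.0; trend and robust) was fitted to all 20 libraries in 3 groups, with Benjamini-Hochberg adjustment over all genes tested and a threshold of 0.05. Library measures were compared by exact 2-sided permutation tests in Python 3.11.15. The fitting steps were tested on simulated data. Genes were named as the 15 largest separated differences in each direction, up to 4 members per list by p, a fixed set, and further genes chosen after their values were seen. The groups and the 41 lists were chosen with earlier results of these data known, and motifs other than TCF/LEF after values were seen. Positions are from GENCODE M21 and promoter sequences from RefSeq (GRCm38.p6). Alternatives covered scaling, the filter, the pseudocount, covariates, replicate sets and leaving out each library. Most list members are not named, and list counts include them.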

Additional observations from a re-analysis of the deposited data

Results flagged for a closer look

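Of 378 groups of 7 libraries examined, 17 (4.5%) held a library whose gap to the nearest other exceeded Dixon's limit for 7 values, and chance gives about 1 in 20.

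Among Apc Min control libraries, depth was lowest in replicate 1, at 21.24 M reads against 26.68 to 28.72 in the others. Replicate 6 was highest for the growth factor Areg (18.7 RPKM, the others 7.717 to 11.25) and hexokinase Hk2 (47.99, the others 11.15 to 18.79). Cela1 was highest in replicate 3 (60.26 RPKM), Ciita in replicate 2 (1.478) and Krt20 in replicate 4 (807.6), and in replicate 1 Sst was highest (28.72 RPKM, the others 13.29 to 18.52) and Il1rn lowest (13.22).

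Among WT libraries, replicate 1 was highest for Clu (34.27 RPKM, the others 8.197 to 12.59) and Stra6 (0.653) and lowest for the ileal gene Fabp6 (158.2, the others 2838 to 9728). Replicate 2 was highest for Wfdc18 (0.3259 RPKM), Cxcl2 (0.09821) and Pmvk (19.96). Replicate 6 was highest for Onecut2 (0.4656) and was the 1 WT library in which Bpifb5 was above 0 (0.02081). Ciita was highest in replicate 5 (8.492).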

How the results depend on the processing

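Scaling changed the balance of calls: quantile normalization gave 3240 genes higher and 3348 lower (median difference -0.01015), and median-of-ratios scaling 3302 and 3396 (median -0.002503). Requiring a log2 difference of at least 1 left 905 higher and 458 lower. With the smooth muscle mean as a covariate 2931 were higher and 573 lower. A filter at 5 RPKM left 3306 higher, fewer genes being tested, and without a filter the median difference was 0.04503. Replicates 5 to 7 alone gave 1141 lower, with fewer libraries. Leaving out 1 library at a time gave 4985 to 5501 higher, 1696 to 2026 lower and a median of 0.1804 to 0.2114.

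Replicate numbers did not pair the libraries: same-number correlations ran from -0.302 to 0.513, and 1 of 7 numbers matched itself best. The fit with a replicate block gave 5675 higher and 2084 lower and ended none of the calls of named genes. Of 150 named genes called, 109 kept their call in all 27 alternatives. With the sign kept, calls ended for 33 with the muscle covariate, 11 when only replicates 1 to 4 were used and 27 with replicates 5 to 7 only. Of 41 list medians 29 moved and 13 turned sign in some alternative. Among genes called, the sign turned with the muscle covariate for Dpt (0.05906), Nos2 (0.3028) and Pmvk (0.05586), whose calls ended as well. Grem1, not called, was called higher within replicates 5 to 7 (0.8129). Signs of other uncalled genes turned too, for example Ifit2 (0.064) and Bop1 (0.22) with that covariate. The cause was not tested. Depth and the RPKM unit are inferred from the values, low genes carry few reads, and 7 libraries a group limit precision.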
